A study of Platycodon grandiflorus with 6 samples.

Results

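The Trihelix transcription factors of *Platycodon grandiflorus* (balloon flower, a medicinal herb of the Campanulaceae) were taken as the unigenes, that is the assembled transcripts, whose deposited transcription factor annotation was Trihelix. They numbered 76 of 152777 unigenes, and 1 whose best match in the NR protein database was a peanut (Arachis) protein was skipped, which left 75 members. Of these, 52 were contigs of 20 clusters, a cluster (CL number) being a set of similar contigs from the de novo assembly, and 23 were single unigenes, so that the set covered 43 clusters or single unigenes. RNA-seq had been run on 3 leaf libraries (replicates 1, 2 and 3) and 3 callus libraries (replicates 4, 5 and 6). Leaves came from the original plants, and callus, a mass of dividing cells grown in culture, had been raised from stem pieces with nodes on MS medium that held the auxin NAA at 1.0 mg/L and the cytokinin 6-BA at 0.5 mg/L, for 50 d with light for 12 h a day. The tissues therefore differed at the same time in organ, in hormones and in growth conditions, which cannot be told apart. No genetic change was carried by either group, the methods of the study describe the replicates as independent biological ones, and the comparison asked which of these regulators differed in level between leaf and callus.

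Trihelix proteins are a plant family of DNA-binding factors named for a domain of helices that resembles the repeat of MYB proteins, and they were first found through their binding to GT elements, short promoter motifs of light-regulated genes. GT-1 binds promoters such as that of the Rubisco small subunit, GT-2 was described in rice as a binder of the phytochrome A promoter, and the ASIL proteins of Arabidopsis hold down seed maturation genes in seedlings. In Arabidopsis GTL1 represses the stomatal protease gene SDD1 and limits trichome and root hair growth, PTL (PETAL LOSS) shapes the growth of sepals and petals, and ASR3 is a repressor in immune signalling.

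Between 17963458 and 19444638 read pairs were assigned to unigenes in each library. Leaf replicate 1 stood apart in the share of its counts on peanut-matching unigenes, at 1.17% against 0.178% to 0.347% in the other libraries. Leaf labels fitted their markers: the unigenes named as Rubisco small subunit, Rubisco activase or chlorophyll a-b binding protein summed to between 27780 and 33550 FPKM (fragments per kilobase of transcript and per total of fragments, a level per length) in leaf and to between 9428 and 10350 FPKM in callus. Of the 109 that were tested, 35 fell in callus (beside 12.3% of all unigenes tested) and 3 rose (beside 14.2%). Of these 137 marker unigenes, 2 had no counts in any library. In such bulk samples fewer cells of a type and less RNA per cell cannot be told apart.

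The annotation of the members was mixed. A Trihelix factor was the SwissProt match of 44 members, another protein was the match of 21, and 10 had no SwissProt match. Names came mostly from the ASIL group with 24 members, followed by GT-1 with 9, and by GT-2, GT-4, GTL, PTL and ASR3 with 2 each and GT-3 with 1. A Myb/SANT-like DNA-binding domain led the Pfam entry of 66 members, and 9 had another entry in that place. The largest set outside the Trihelix names was ribonuclease J with 9 contigs of a single cluster, CL397. Plant ribonuclease J is a chloroplast RNA-processing enzyme that carries a GT-1-like domain beside its nuclease part. The members were between 563 and 5068 bases long, with a median of 1965.

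As a set the members were expressed at moderate levels in leaf and callus. Counts were found for 71 members, and for 46 of them in all 6 libraries. Mean FPKM was at least 10 for 14 members, from 1 to 10 for 39 and under 1 for 18, and the median member stood at the percentile 79.1 of all detected unigenes by FPKM. The 4 members with no counts in any library were 3 ASIL2-named contigs of cluster CL908 and the ribonuclease J contig CL397.Contig11. The summed level of all members was 523.7, 462.8 and 517.2 FPKM in leaf replicates 1 to 3 and 479.5, 602.4 and 515.7 FPKM in callus replicates 4 to 6. These sums overlapped between the tissues. Without the 9 ribonuclease J contigs, a split chosen after the values were seen, they were 410.7, 340.3 and 394.5 FPKM in leaf and 464.9, 587.0 and 501.1 FPKM in callus, and for the 44 members with a Trihelix name in SwissProt 284.1, 242.7 and 273.0 FPKM in leaf and 304.9, 390.6 and 336.7 FPKM in callus. In both of these sums every callus library lay above every leaf library.

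In the test across all unigenes, 61 members had counts enough to be tested, of which 11 were higher in callus and 6 lower when called at 0.05 on the adjusted p of edgeR. The higher ones made 18% of the members tested, beside 14.2% of all 66307 unigenes tested and 19.1% of the 2324 tested unigenes of other transcription factor families. The lower ones made 9.84%, beside 12.3% of all unigenes and 11.2% of the other families. These shares lay near the background. The median log2 fold change (callus over leaf) was 0.14 for the members, -0.10 for all unigenes and 0.18 for the other families, and the median absolute log2 fold change was 1.04, 1.37 and 1.33, respectively. In expected counts, not scaled for library size, every callus library lay above every leaf library for 20 of the 61 tested members. That held for 29.3% of all unigenes tested. Every callus library lay below for 10 of the 61, beside 24.8%. The number of higher members depended on the libraries used: it was 5 without leaf replicate 2, 3 without callus replicate 4, 2 without callus replicate 5 and 0 without callus replicate 6. The number of lower members was 3 and 2 without callus replicates 5 and 6. The share of all unigenes called in these smaller fits was not taken, so these numbers have no background beside them. Whether the losses were particular to the members was not tested. With DESeq2 at the thresholds of the study's methods (0.001 for the adjusted p together with a 2-fold change), 4 members were higher and 5 lower. Beside them stood 5.31% and 3.88% of the 143094 unigenes with counts, taken whether or not DESeq2 gave an adjusted p. With edgeR no member and no other unigene passed those thresholds, the lowest adjusted p of any unigene being 0.0022, while 27668 unigenes had an unadjusted p under 0.05.

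**Figure D1:**
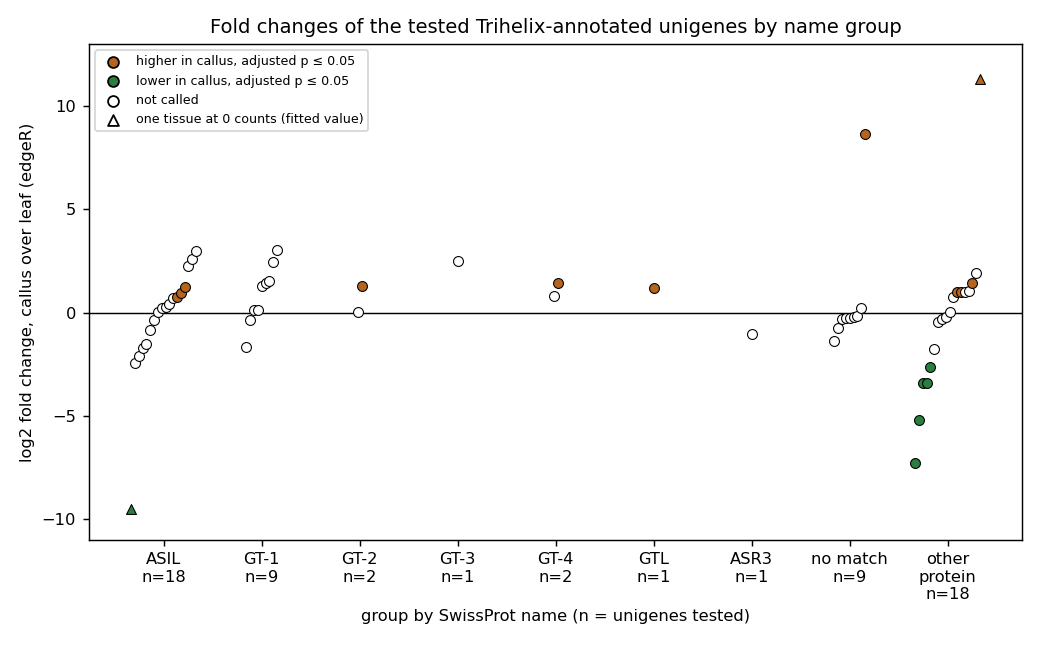
Log2 fold change, callus over leaf (edgeR), of the 61 tested Trihelix-annotated unigenes, grouped along the x axis by SwissProt name ("no match" for members without one), where each point is a unigene and filled points passed an adjusted p of 0.05. Triangles are the 2 called unigenes with 0 counts in all libraries of a tissue, whose fitted values depend on the prior count. All called falls except 1 ASIL point lie in the group matched to other proteins, where they are 5 contigs of ribonuclease J.

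The largest set by name was ASIL, in which 18 of 24 members were tested, with 3 higher in callus, 1 lower and 14 not called. The median log2 fold change of the 18 was 0.25. The most abundant of them was Unigene14241, matched to ASIL1, at 26.5, 20.9 and 23.5 FPKM in leaf and 40.2, 73.0 and 54.8 FPKM in callus. All callus libraries lay above all leaf libraries, and the unigene rose by 1.23 on the log2 scale (SE 0.243, edgeR adjusted p = 0.0179). This call was lost without callus replicate 5 or 6 (edgeR adjusted p = 0.0673 and 0.0761). Its Pfam entry was an amino acid kinase family domain and not the Myb/SANT-like domain, so its ASIL1 name rests on SwissProt alone. The same domain was the Pfam entry of CL12603.Contig1, matched to ASIL2, whose level was 15.5, 12.1 and 12.9 FPKM in leaf and 19.3, 27.0 and 22.8 FPKM in callus. Its tissues did not overlap, and the rise was smaller (log2 fold change 0.76, SE 0.212, edgeR adjusted p = 0.0463).

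Of the 16 tested ASIL members with the Myb/SANT-like domain, 9 had a positive and 7 a negative log2 fold change. CL481.Contig6 was the only one of them that edgeR called higher. Its level was 9.53, 9.33 and 11.9 FPKM in leaf and 17.1, 22.7 and 20.4 FPKM in callus. The tissues did not overlap (log2 fold change 0.95, SE 0.222, edgeR adjusted p = 0.0276). Among the abundant members with that domain, Unigene29825 was at 14.7, 19.6 and 13.97 FPKM in leaf and 14.3, 17.6 and 18.4 FPKM in callus, and CL2704.Contig3 was at 19.1, 14.9 and 27.5 FPKM in leaf and 21.6, 25.5 and 27.3 FPKM in callus. Both overlapped between the tissues (log2 fold changes 0.04 and 0.27, edgeR adjusted p = 0.921 and 0.484). Unigene41892, matched to ASIL1, was at 27.9 and 30.8 FPKM in leaf replicates 1 and 2 but at 7.12 FPKM in leaf replicate 3, and at 12.9, 17.9 and 21.3 FPKM in callus. The spread within leaf was larger than the difference between the tissues, and the sign of the log2 fold change turned from -0.36 to 0.024 without leaf replicate 2. Calls of CL12603.Contig1 were lost without leaf replicate 2 or 3 or any callus library (edgeR adjusted p between 0.0760 and 0.160), and that of CL481.Contig6 without leaf replicate 2 or any callus library (between 0.0567 and 0.114).

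A fall in callus was called for 1 ASIL member, Unigene23404, matched to ASIL2. It had 49.4, 182.6 and 22.9 counts in leaf, or 1.70, 6.38 and 0.77 FPKM, and 0 counts in every callus library. Taking 3 counts over the callus group as the upper limit, it was at least 87.6-fold lower in callus (edgeR adjusted p = 0.0272). Leaf replicate 2 held most of those counts, and without it the bound was 36.9-fold. The adjusted p was 0.0621, 0.0746 and 0.0796 without callus replicate 4, 5 or 6. The study listed this unigene with 6 other Trihelix unigenes in relation to saponin or polysaccharide synthesis. Its choice used KEGG pathways and log2 fold changes of these samples, and so is no independent evidence of direction. Of those 6, the ASIL2-named Unigene26781 was at 0.12, 1.84 and 0 FPKM in leaf and at 3.49, 4.42 and 4.39 FPKM in callus. The paper reports this unigene as co-expressed with its putative beta-glucosidase gene. Callus was evenly high and leaf replicate 2 lay far above the other leaf libraries, and the difference did not pass the test (log2 fold change 2.58, SE 1.55, edgeR adjusted p = 0.258). Without leaf replicate 2 the log2 fold change was 5.94 and the edgeR adjusted p 0.0372, and limma on log2(FPKM + 1) called it with all 6 libraries (1.79 on that scale, adjusted p = 0.0249). The ASIL2-named Unigene20920 was at 1.82, 1.92 and 0.56 FPKM in leaf and 0.85, 0.30 and 0.39 FPKM in callus and was not called (log2 fold change -1.51, edgeR adjusted p = 0.177), and Unigene57991 had too few counts to be tested, at 0.67, 0.10 and 1.42 FPKM in leaf and 0.21, 0.27 and 0.19 FPKM in callus. The remaining ones belong to the PTL and GTL groups.

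GT-2 supplied the most abundant member of the whole set. Unigene895 was at 64.1, 46.2 and 80.2 FPKM in leaf and at 67.3, 76.6 and 52.8 FPKM in callus. Leaf and callus overlapped fully, with a log2 fold change of 0.04 (SE 0.258, edgeR adjusted p = 0.917) whose sign turned without leaf replicate 2 (-0.11) or callus replicate 5 (-0.02). By contrast the other GT-2 member, Unigene36145, was at 3.90, 3.77 and 4.04 FPKM in leaf and at 12.4, 8.30 and 7.89 FPKM in callus. Its leaf libraries were nearly equal and all callus libraries were higher (log2 fold change 1.29, SE 0.325, edgeR adjusted p = 0.0342). The call was lost on leaving out any library (edgeR adjusted p between 0.0590 and 0.0939). The NR match of Unigene36145 was a GTL2 protein, a GT-2-like factor.

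None of the 9 GT-1-named members was called by edgeR, although 2 of them, both contigs of cluster CL5619, had an unadjusted p under 0.05 and were called by DESeq2. By edgeR these 2 went in opposite directions, with log2 fold changes of 3.03 for CL5619.Contig3 and -1.69 for CL5619.Contig5. CL4718.Contig1, the most abundant of the 9, was at 31.9, 36.8 and 27.9 FPKM in leaf and 20.9, 29.5 and 26.8 FPKM in callus, which overlapped (log2 fold change -0.34, SE 0.226, edgeR adjusted p = 0.297). The second contig of that cluster, CL4718.Contig2, was at 17.2, 0.15 and 0.28 FPKM in leaf and at 8.75, 18.6 and 14.9 FPKM in callus. Leaf replicate 1 thus sat with the callus libraries and apart from the other leaf libraries, and the contig took 21.1% of the counts of its cluster there, 0.205% and 0.493% in the other leaf libraries and from 17.2% to 23.9% in callus. The part of leaf replicate 1 in this pattern was not tested. With both contigs summed, CL4718 was at 1093, 981 and 777 counts in leaf and 729, 1074 and 942 counts in callus and did not pass the test (log2 fold change -0.20, edgeR adjusted p = 0.436).

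The remaining GT-1 members were Unigene26016 and 6 contigs of cluster CL5619. All 7 contigs of CL5619 are named GT-4 by NR, whereas SwissProt names 6 of them GT-1 and CL5619.Contig4 GT-4. CL5619.Contig4 was at 3.22, 2.44 and 4.10 FPKM in leaf and at 7.41, 9.31 and 9.94 FPKM in callus, without overlap (log2 fold change 1.44, SE 0.368, edgeR adjusted p = 0.0353). Summed over its contigs, the cluster had 354, 346 and 390 counts in leaf and 566, 639 and 620 counts in callus. The sum rose by 0.60 on the log2 scale (SE 0.145, edgeR adjusted p = 0.0188), a smaller change than that of the contig. As a share of the cluster CL5619.Contig5 went from 18.9% ± 2.67 (SD, n = 3) in leaf to 3.63% ± 1.94 in callus and CL5619.Contig4 went from 16.9% ± 3.66 to 28.5% ± 2.22, with no overlap in either. Shares within a cluster were not tested, since reads are divided among near-identical contigs by estimate. The contig's call was lost without leaf replicate 1 or 2 or any callus library (edgeR adjusted p between 0.0574 and 0.143), and that of the cluster without callus replicate 5 or 6 (0.0619 and 0.0694). Of the other GT members, Unigene35958 (GT-4) was at 2.53, 1.49 and 2.39 FPKM in leaf and 2.74, 4.95 and 3.49 FPKM in callus and was not called (log2 fold change 0.79, edgeR adjusted p = 0.213). Unigene35969, matched to GT-3b, was at 0.56, 0.35 and 1.26 FPKM in leaf and at 8.45, 1.09 and 2.21 FPKM in callus, where callus replicate 4 stood above the rest, and it was not called either (log2 fold change 2.47, SE 0.986, edgeR adjusted p = 0.112), though DESeq2 called it (adjusted p = 0.0450).

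In the GTL group Unigene19741, matched to GTL1 by SwissProt and NR alike and listed by the study, was at 2.01, 1.41 and 1.81 FPKM in leaf and 4.27, 4.18 and 3.68 FPKM in callus. The tissues did not overlap and the spread within each was small (log2 fold change 1.21, SE 0.298, edgeR adjusted p = 0.0323). The call was lost without leaf replicate 2 or any callus library (edgeR adjusted p between 0.0592 and 0.116). The second GTL member, Unigene12900, had 0 counts in all leaf libraries and 8, 3 and 4 counts in callus, too few to be tested, which made it at least 4.85-fold higher in callus against 3 counts over the leaf group. No unigene was named SDD1. As a check of the cells in which GTL1 acts, 4 of the 14 tested stomatal lineage unigenes were higher in callus and 0 lower. Of all unigenes tested, 14.2% were higher and 12.3% lower. The list of 23 summed to between 32.9 and 52.5 FPKM in leaf and between 62.7 and 82.4 FPKM in callus. The part of that list in the GTL1 result was not tested.

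Both PTL members, which the study listed too, were at the floor of detection. Unigene465 had 0 counts in every leaf library and 2.27, 32.8 and 12.5 counts (0.05, 0.75 and 0.29 FPKM) in callus, at least 15.4-fold higher. Unigene67648 likewise had 0 counts in leaf and 2.36, 8.90 and 2.53 counts (0.09, 0.35 and 0.10 FPKM) in callus, at least 4.46-fold higher. Callus replicate 5 held most of the counts of both, and without it the bounds were 7.13-fold and 2.36-fold. In both the tissues were apart, but neither had counts enough for the test, so these bounds have no replicate check beyond the values themselves. ASR3 was weakly expressed as well: CL8564.Contig2 was at 0.58, 2.42 and 1.03 FPKM in leaf and 0.96, 0.59 and 0.43 FPKM in callus, with overlap (log2 fold change -1.03, SE 0.703, edgeR adjusted p = 0.313), and Unigene41914 was detected only in leaf replicate 2, at 1.06 FPKM, and in callus replicate 6, at 0.41 FPKM.

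**Figure D2:**
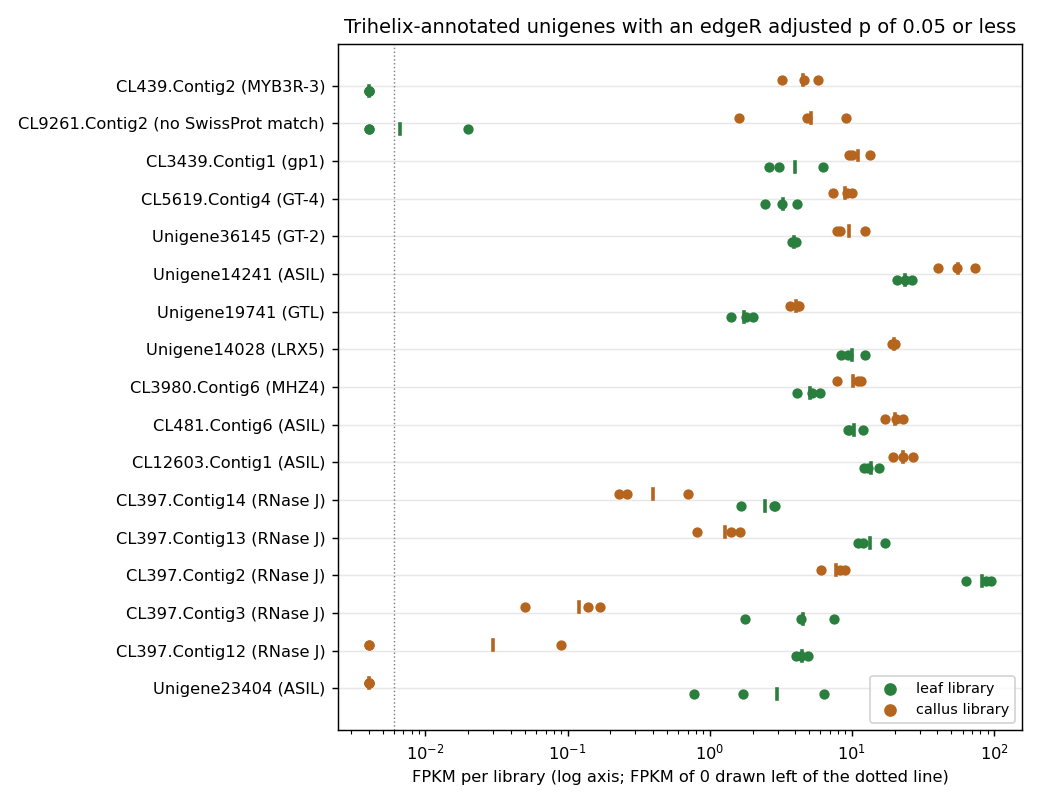
FPKM per library, on a log axis, of the 17 Trihelix-annotated unigenes that edgeR called, with leaf libraries in green, callus libraries in brown and the tissue mean as a short bar; an FPKM of 0 is drawn left of the dotted line. Leaf and callus points do not overlap in any row, and the largest level of all is that of the ribonuclease J contig CL397.Contig2 in leaf, at 63.1 to 95.7 FPKM.

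The largest change by level was that of ribonuclease J. Its 15 contigs in cluster CL397 held 6922, 7660 and 7951 counts in leaf and 950, 954 and 910 counts in callus, and both tissues were tight around their means. The sum fell by 3.15 on the log2 scale in callus (SE 0.145, edgeR adjusted p = 4.78e-04), and it was the only member cluster past an edgeR adjusted p of 0.001 with at least a 2-fold change. The 9 Trihelix-annotated contigs alone carried 93.8% of those counts and gave a log2 fold change of -3.11 (SE 0.140, edgeR adjusted p = 4.34e-04). Their summed level was 119.4 ± 5.50 FPKM in leaf and 14.8 ± 0.434 FPKM in callus (SD, n = 3 each). Of the 6 contigs tested, 5 fell and 1 was not called, so that ribonuclease J supplied 5 of the 6 lower members. Of the 55 other members tested 11 were higher (20.0%, beside 14.2% of all unigenes tested) and 1 was lower (1.82%, beside 12.3%). This split was chosen after the values were seen and takes out those 5 falls. Its shares therefore cannot be compared with those of all unigenes, from which no falls were taken out. The leaf mesophyll markers fell in the same libraries (35 of 109 tested, beside 12.3% of all unigenes, with 3 higher, beside 14.2%). Their part in the ribonuclease J result was not tested.

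CL397.Contig2 was the main contig, at 63.1, 88.3 and 95.7 FPKM in leaf and 8.90, 6.07 and 8.28 FPKM in callus (log2 fold change -3.41, SE 0.302, edgeR adjusted p = 0.00458). CL397.Contig13, whose Pfam entry was the beta-lactamase fold of the nuclease, was at 11.1, 17.1 and 11.9 FPKM in leaf and 1.4, 1.63 and 0.81 FPKM in callus (log2 fold change -3.40, SE 0.393, edgeR adjusted p = 0.00614). Both kept the call whichever library was left out. CL397.Contig3 was at 7.46, 4.35 and 1.77 FPKM in leaf and 0.14, 0.17 and 0.05 FPKM in callus (log2 fold change -5.20, edgeR adjusted p = 0.00992), CL397.Contig12 at 4.95, 4.05 and 4.39 FPKM in leaf and 0, 0.09 and 0 FPKM in callus (log2 fold change -7.29, edgeR adjusted p = 0.0116), and CL397.Contig14 at 1.66, 2.88 and 2.82 FPKM in leaf and 0.70, 0.26 and 0.23 FPKM in callus (log2 fold change -2.62, edgeR adjusted p = 0.0316). All of them were apart between the tissues. Calls were lost without callus replicate 6 for these 3 (edgeR adjusted p = 0.0589, 0.0642 and 0.121), without callus replicate 5 for CL397.Contig3 and CL397.Contig14 (0.0542 and 0.120) and without leaf replicate 2 or 3 for CL397.Contig14 (0.0709 and 0.0628).

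CL397.Contig15 behaved otherwise, at 3.51, 5.58 and 5.87 FPKM in leaf and 3.44, 7.13 and 5.21 FPKM in callus. Its tissues overlapped (log2 fold change 0.05, SE 0.373, edgeR adjusted p = 0.936). It made up 3.66% ± 0.742 of the cluster's counts in leaf and 32.1% ± 10.5 in callus (SD, n = 3 each). Leaf replicate 1 also held contigs that the others all but lacked: CL397.Contig1 was at 16.0 FPKM there, at 0.15 FPKM in both other leaf libraries and at no more than 0.04 FPKM in callus, and CL397.Contig8 was at 5.20 FPKM there and at 0 in the other 5 libraries.

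**Figure D3:**
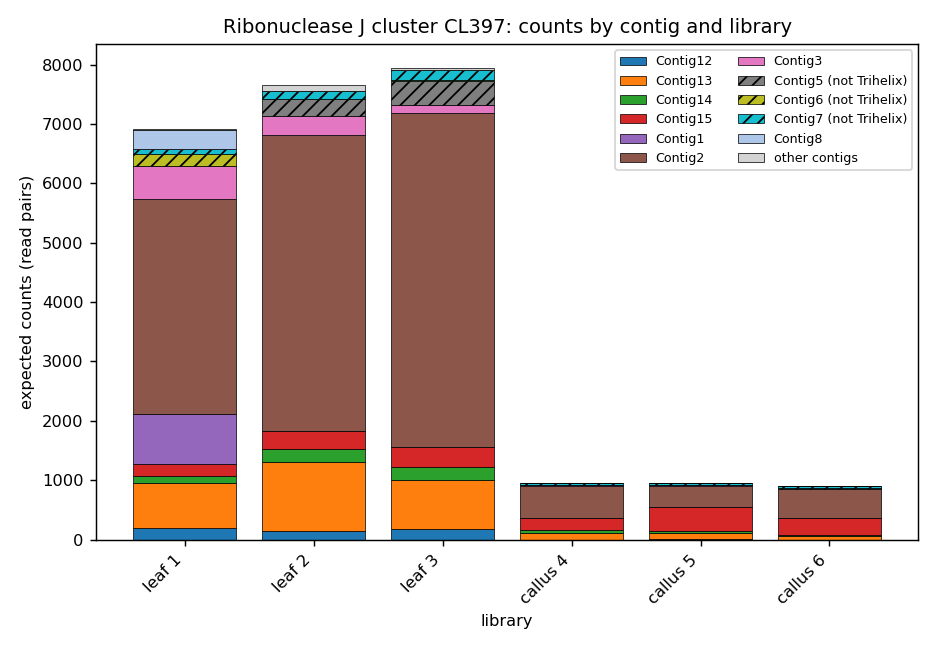
Expected counts of the ribonuclease J cluster CL397 in each library (y axis, read pairs), stacked by contig; hatched contigs are not annotated as Trihelix, and contigs under 2 percent of the counts in every library are pooled in grey. The leaf bars reach 6922 to 7951 counts and the callus bars 910 to 954, while Contig15 (red) keeps about its height.

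A second set of called members was called as contigs but not as clusters. Cluster CL439 is matched to MYB3R-3, which in Arabidopsis represses genes of the G2 to M phase, and its Pfam entry is a Myb-like domain, so its place in the Trihelix family rests on the family annotation alone. CL439.Contig2 had 0 counts in every leaf library and 3.23, 4.6 and 5.75 FPKM in callus, which is at least 315-fold higher against 3 counts over the leaf group (edgeR adjusted p = 0.00572, and 0.0516 without callus replicate 6). In the opposite direction CL439.Contig3 was at 4.26, 4.03 and 2.61 FPKM in leaf and 1.26, 1.71 and 0.29 FPKM in callus, not called (log2 fold change -1.75, edgeR adjusted p = 0.106). The whole cluster had 789, 735 and 635 counts in leaf and 576, 671 and 702 in callus, which overlapped (log2 fold change -0.29, SE 0.151, edgeR adjusted p = 0.165), and the sign turned when only the 3 Trihelix-annotated contigs were summed (0.34, adjusted p = 0.153). CL439.Contig2 took 49.5% ± 8.2 of the cluster's counts in callus and none in leaf.

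Cluster CL9261, without a SwissProt match and named a Trihelix factor by NR, showed the same arrangement. CL9261.Contig2 was at 0, 0.02 and 0 FPKM in leaf and 9.02, 1.61 and 4.86 FPKM in callus (log2 fold change 8.64, SE 1.31, edgeR adjusted p = 0.01, and 0.0591 without callus replicate 6). The leaf value rests on 0.64 estimated counts over the group, below the floor of 3 counts, so the size of this change is poorly known. The main contig, CL9261.Contig3, was at 10.2, 10.4 and 13.4 FPKM in leaf and 11.2, 9.44 and 9.73 FPKM in callus, and the whole cluster did not pass the test (506, 451 and 799 counts in leaf and 896, 462 and 611 in callus; log2 fold change 0.04, SE 0.333, edgeR adjusted p = 0.913). Its sign turned without leaf replicate 1 (-0.07), leaf replicate 2 (-0.09) or callus replicate 4 (-0.23).

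Cluster CL3439 is matched to proline-rich cell wall proteins (PERK10, a receptor-like kinase, and gp1, a wall protein of Chlamydomonas), while NR names a Trihelix factor for all 3 contigs. CL3439.Contig1 was at 2.59, 3.07 and 6.31 FPKM in leaf and 10.1, 13.4 and 9.55 FPKM in callus, without overlap (log2 fold change 1.45, SE 0.411, edgeR adjusted p = 0.0478). It took 39.4% ± 9.33 of the cluster's counts in leaf and 69.2% ± 4.70 in callus. The cluster as a whole, at 409, 433 and 662 counts in leaf and 853, 949 and 721 counts in callus, did not pass (log2 fold change 0.60, SE 0.229, edgeR adjusted p = 0.0761), but did without leaf replicate 3 (0.86, adjusted p = 0.0202). The contig's call was lost without leaf replicate 1 or 2 or any callus library (edgeR adjusted p between 0.0787 and 0.153).

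**Figure D4:**
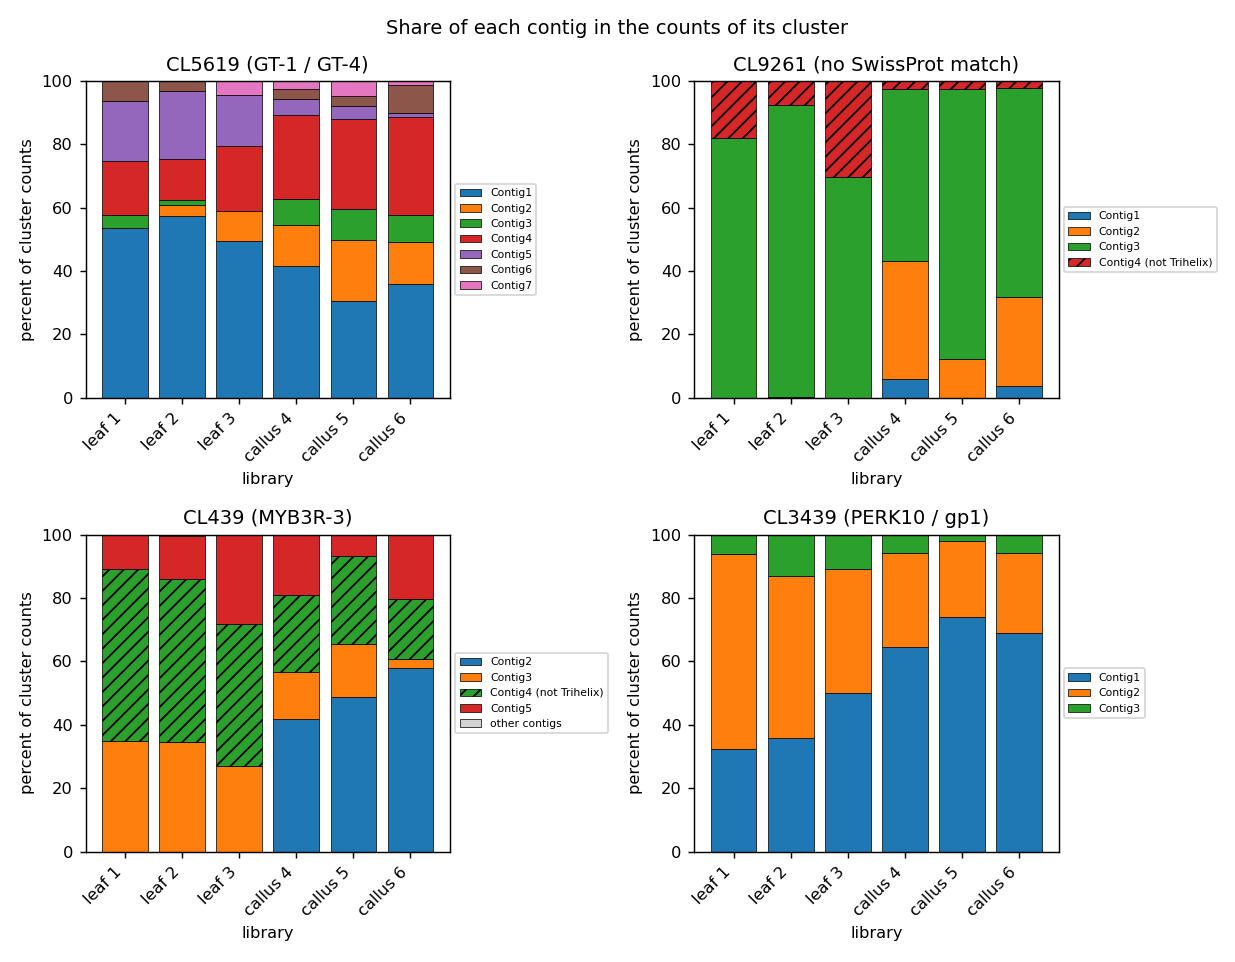
Percent of a cluster's counts on each contig (y axis) in each library (x axis) for 4 clusters that hold called contigs; hatched contigs are not annotated as Trihelix. Contig2 of CL439 and Contig2 of CL9261 take 49.5% and 25.9% of the counts on average in callus and next to none in leaf, and Contig1 of CL3439 goes from 39.4% to 69.2%.

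The remaining called members were matched to other proteins as well. Unigene14028, matched to the cell wall protein LRX5 by SwissProt and to ASIL2 by NR, was at 8.34, 9.33 and 12.3 FPKM in leaf and at 19.2, 20.2 and 19.8 FPKM in callus. Callus was even and above every leaf library (log2 fold change 0.98, SE 0.279, edgeR adjusted p = 0.0489). CL3980.Contig6, matched to MAO HUZI 4 (ABA DEFICIENT 4), a chloroplast protein needed for neoxanthin synthesis, was at 5.22, 4.13 and 5.97 FPKM in leaf and at 7.82, 11.0 and 11.6 FPKM in callus (log2 fold change 0.98, SE 0.276, edgeR adjusted p = 0.0474). Its Pfam entry was DUF4281, a domain of unknown function. The contig held 44.3% of the counts of cluster CL3980, which overlapped between the tissues and was not called (log2 fold change 0.21, edgeR adjusted p = 0.365). The calls of Unigene14028 and CL3980.Contig6 lay close to the threshold. Both were lost without leaf replicate 1 or 2 or any callus library (edgeR adjusted p between 0.0725 and 0.179). The most abundant members that were not called included Unigene464, matched to NF-YC1 by SwissProt and to PTL by NR, at 13.6, 13.9 and 18.6 FPKM in leaf and 18.2, 35.7 and 24.8 FPKM in callus (log2 fold change 0.75, SE 0.285, edgeR adjusted p = 0.101). Unigene8178, matched to the latex protein mulatexin, was at 38.2, 7.66 and 6.27 FPKM in leaf and 32.7, 43.0 and 26.6 FPKM in callus. Leaf replicate 1 lay among the callus libraries here too, and the unigene was not called (log2 fold change 0.99, SE 0.723, edgeR adjusted p = 0.345) but was higher in callus without that library (2.25, adjusted p = 0.0145). Unigene23590, without a SwissProt match and named GT-4 by NR, was at 15.4, 14.7 and 11.9 FPKM in leaf and 11.4, 12.2 and 11.9 FPKM in callus and was not called (log2 fold change -0.25, edgeR adjusted p = 0.421).

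Counts summed by CL number gave a shorter list. Of 43 clusters or single unigenes, 38 were tested, of which 8 were higher in callus and 2 lower. These made 21.1% and 5.26% of those tested, beside 22% and 20.8% of all 32898 clusters and single unigenes tested. In unscaled expected counts, every callus library lay above every leaf library for 13 of the 38 and below for 3 of the 38. The shares of all were 33.9% and 25.9%, respectively. The median absolute log2 fold change was 0.60, and 1.12 over all. Without callus replicate 5 the number of higher ones was 5. Higher were CL481 (log2 fold change 0.89, SE 0.119, edgeR adjusted p = 0.003), CL12603 (0.72, SE 0.160, adjusted p = 0.0146), CL5619, CL908 and the single unigenes Unigene14028, Unigene14241, Unigene19741 and Unigene36145, and lower were CL397 and Unigene23404. The call of CL908 does not concern a Trihelix transcript: its 3 ASIL2-named contigs had no counts, and most of its contigs are matched to the auxin response factor ARF19. CL481 likewise holds calcium-dependent protein kinase contigs, but its Trihelix-annotated contigs alone also rose (0.87, edgeR adjusted p = 0.0108). Other contigs were present in 14 of the 20 clusters. When only Trihelix-annotated contigs were summed, 37 were tested and again 8 were higher and 2 lower, 7 of the higher ones by both sums. In that sum CL908 could not be tested and CL3980 was gained (0.89, edgeR adjusted p = 0.0238). No cluster held called contigs of both directions. At the study's thresholds edgeR gave 0 higher and 1 lower, beside 1.13% and 1.35% of all clusters and single unigenes tested. DESeq2 gave 4 higher and 2 lower. Beside them stood 5.45% and 3.93% of the 89061 clusters and single unigenes with counts, again whether or not an adjusted p was given.

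**Figure D5:**
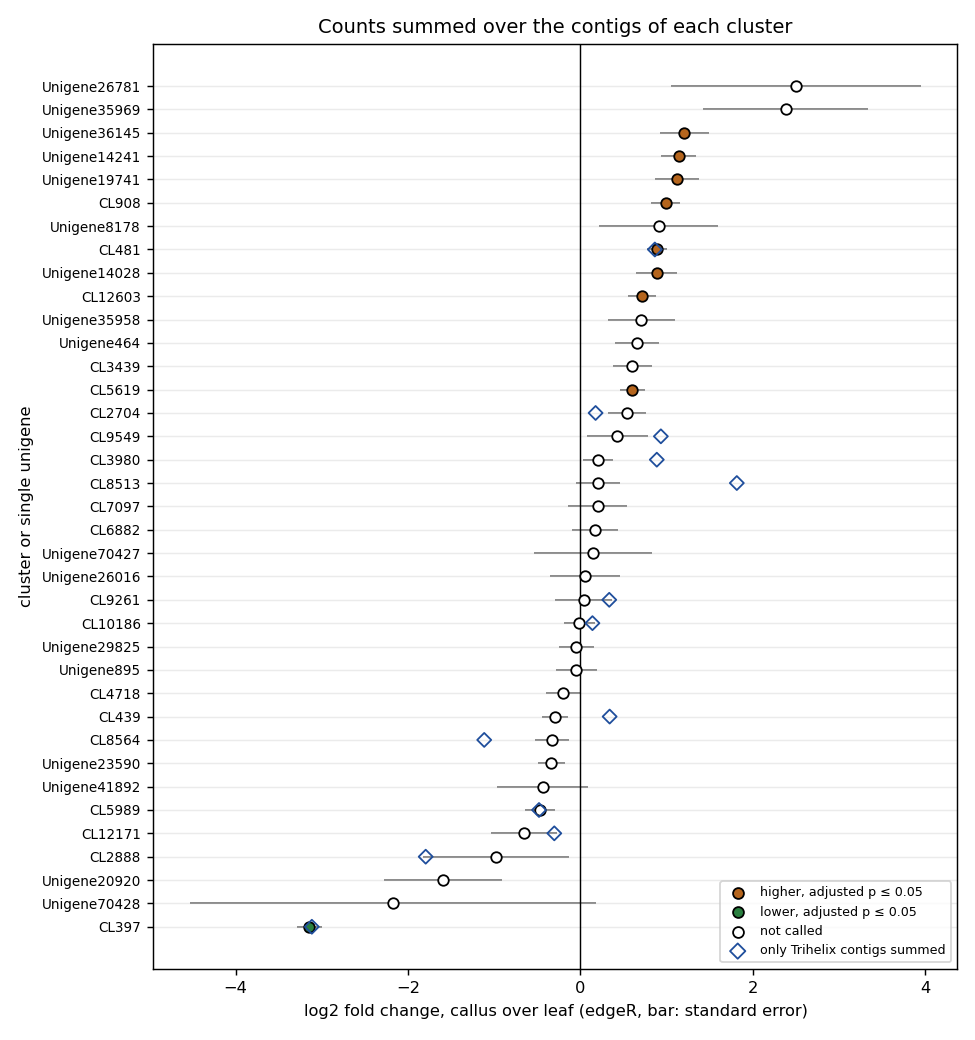
Log2 fold change with its standard error, callus over leaf (edgeR), of clusters and single unigenes that hold a Trihelix-annotated unigene, after counts were summed by CL number; filled points passed an adjusted p of 0.05, and diamonds give the value when only Trihelix-annotated contigs are summed. Of the 38 tested, Unigene23404 is left out because its callus counts are all 0, CL397 is the lowest at -3.15, and CL439 is the cluster whose diamond lies well across 0 from its point.

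Genes known in other plants as targets of these factors were read from SwissProt names. Of 22 such unigenes 13 were tested, 2 rising (beside 14.2% of all unigenes tested) and 6 falling (beside 12.3%). The falls were all Rubisco small subunits, promoters of which GT-1 binds: 6 of 7 tested were lower in callus, and the 9 unigenes summed to between 6269 and 7344 FPKM in leaf and between 1468 and 1745 FPKM in callus. These unigenes are also part of the leaf mesophyll markers given above, so their falls are no separate observation. The phytochrome A unigene, to whose promoter GT-2 binds in rice, was at 11.2, 8.67 and 9.87 FPKM in leaf and 22.9, 32.4 and 31.2 FPKM in callus and rose by 1.53 on the log2 scale by edgeR. The other rise was 1 oleosin unigene of 3 tested, a seed oil body protein under ASIL1 control in Arabidopsis. The median log2 fold change of those 3 was -0.94, and the 5 oleosin unigenes summed to 16.6, 11.0 and 12.3 FPKM in leaf and to 4.03, 9.32 and 6.60 FPKM in callus, where every library was lower. The 2 tested LEC2 unigenes were not called by edgeR, and no unigene was named LEC1, FUS3 or ABI3. These lists give counts only and were not tested as sets.

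The KEGG and Pfam entries of the members were the annotations left. Among KEGG entries, homogentisate solanesyltransferase (K12501) stood first for 7 members and pectinesterase (K01051) for 5, and 27 had none. Each Trihelix unigene that the study listed had K12501 or K01051 first. Of the 5 tested members with the former entry 1 was higher and 1 lower in callus, and of the 3 tested with the latter 2 were higher, numbers too small to set beside the 14.2% and 12.3% of all unigenes. Members with a Myb/SANT-like Pfam entry and those with another one gave 7 and 4 higher and 5 and 1 lower of 52 and 9 tested, respectively. That is 13.5% and 44.4% higher, beside 14.2% of all unigenes tested, and 9.62% and 11.1% lower, beside 12.3%, and the split by Pfam entry was not tested.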

How the data were processed

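Leaf and callus RNA of *P. grandiflorus* had been sequenced in 3 libraries each. The deposited expected counts, FPKM and TPM per unigene were made by the authors with Bowtie2 2.2.5 and RSEM 1.2.8 against a de novo assembly, with no genome build. The table the authors deposited also holds log2 fold changes and p-values or q-values of their own comparison, which were not used, and neither was TPM. Unigene identifiers are printed without the ending _All. Expected counts were rounded, scaled by TMM and tested with edgeR 4.0.16 (filterByExpr, quasi-likelihood test, R 4.3.3) over all unigenes, with Benjamini-Hochberg adjustment and a threshold of 0.05. For clusters, counts of all contigs with the same CL number were summed before rounding. RSEM divides reads among near-identical contigs by estimate, so contig values are less certain than cluster sums. The code was tested on simulated data. A fold against a tissue at 0 was bounded with 3 counts over that tissue. An exact permutation test of 3 against 3 libraries cannot go below p = 0.1 and was not used. Levels are FPKM as deposited, with SD over 3 libraries.

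Alternatives were DESeq2 1.42.0, its size factors in edgeR, no count filter, robust dispersion, limma 3.58.1 on log2(FPKM + 1) or log2(FPKM + 0.01) over unigenes above 0 in at least 3 libraries, removal of Arachis-matching unigenes, the study's thresholds, members with a Trihelix SwissProt name only, and leaving out each library. Named members are the most abundant of each name group, the 10 most abundant in all, those the study listed and up to 8 rises and 8 falls. The other called members were added after their values were seen, as were those set beside them: the uncalled contigs of CL397, CL439, CL4718 and CL9261, and Unigene12900, Unigene35958 and Unigene41914. The members and the lists were chosen with earlier results of these data known. Group names follow SwissProt in the order ASIL, ASR3, PTL, GTL, GT-2, GT-1, GT-3, GT-4. Sequences of the members were not used here.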

Additional observations from a re-analysis of the deposited data

How the results depend on the processing

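The number of Trihelix unigenes higher in callus (11) was 3 without the filter on low counts, 4 with DESeq2 and 0 with edgeR at the study's thresholds, 6 among members with a Trihelix SwissProt name, and 0 to 11 on leaving out each library. The number lower (6) was 0 with edgeR and 5 with DESeq2 at the study's thresholds, 1 among members with such a name, and 2 to 6 on leaving out each library. For clusters, the 8 higher became 0 (edgeR) and 4 (DESeq2) at the study's thresholds and 5 to 10 on leaving out each library, and the 2 lower became 1 (edgeR) and 2 to 3, respectively. No share over all unigenes or clusters was taken for the fits that left out a library. The DESeq2 run at the study's thresholds, the restriction to Trihelix names and the bounds without a library were chosen after seeing the data. Removing Arachis-matching unigenes or other size factors left all 4 counts within 1.5 times of the first values (11, 6, 8 and 2). A robust dispersion (run for unigenes) left both unigene counts within that range.

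Signs turned in 9 of 519 alternatives of 42 single values: leaving out each library gave log2 fold changes from -0.043 to 0.25 for Unigene29825, from -0.76 to 0.024 for Unigene41892, from -0.11 to 0.26 for Unigene895 and from -0.23 to 0.33 for CL9261, and summing only Trihelix contigs gave 0.34 for CL439. The cause was not tested. None of these was called. Of the 22 called values, 6 kept the call in every alternative that was run, and 16 lost it without callus replicate 6. No paired analysis was possible because leaf and callus share no replicate numbers. With 3 libraries per tissue and a common biological coefficient of variation of 0.753 for unigenes and 0.537 for clusters, 8 of the 18 detected members under 1 FPKM had too few counts to be tested.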

Other observations

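The Trihelix unigene left out for its peanut match, Unigene76311, is 360 bases long and is matched to GT-2. It had 4 counts in leaf replicate 1 and none in the other 5 libraries. Leaf replicate 1 also differed from the other leaf libraries in several members that match no peanut protein: CL6882.Contig3 (ASIL1) was at 5.05 FPKM there and at 0 in the other leaf libraries, against 0.23 to 0.81 FPKM in callus. Leaf replicate 3 held 15.9 FPKM of CL9549.Contig2, matched to HVA22e, a stress-related membrane protein, beside 0.24 and 0 FPKM in the other leaf libraries and 8.68 to 14.8 FPKM in callus. Unigene70428 (ASIL2) was at 9.55, 0 and 5.65 FPKM in leaf and at 3.31, 0 and 0 FPKM in callus, so that it was present or absent within each tissue.

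ASIL2-named contigs of cluster CL7097 shifted in the share of their cluster's counts while the sum was not called. CL7097.Contig1 took 61.5% ± 8.05 in leaf and 81.8% ± 1.01 in callus (SD, n = 3 each), and the cluster had 107, 137 and 168 counts in leaf and 128, 233 and 166 counts in callus (log2 fold change 0.20, edgeR adjusted p = 0.655).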
